A study of Mus musculus with 8 samples.

Results

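The erythroid cell genes described here are 9 genes of red blood cells and their precursors, measured by RNA sequencing in mouse liver. They are the alpha globin gene Hba-a1, the beta globin gene Hbb-b1, Ahsp, Alas2, Slc4a1, Car1, Car2, Klf1 and Gata1. They were picked by symbol from the deposited gene table, in which each stands on 1 row, and they are 9 of its 19348 genes. Of the 9, 8 passed a filter on low read counts that left 12338 genes for testing, and Gata1 did not. The KO group held 5 libraries (KO1 to KO5) from livers of Stab1 knock-out mice, and the WT group held 3 libraries (WT1 to WT3) from livers of wild-type mice, all of mice 5 weeks of age. The deleted gene, Stab1, encodes the scavenger receptor stabilin-1 of liver sinusoidal endothelium and some macrophages. How the allele was made, and the strain, sex and perfusion of the mice, were not given in the sources used here. Nothing in the labels ties the libraries to separate animals. P-values therefore weigh KO against WT by differences among libraries, part of which may be technical.

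Red cells arise from progenitors in which the transcription factor GATA1 switches on the erythroid programme and KLF1 activates globin genes and many others through CACCC boxes. Precursors then make heme, beginning with the erythroid enzyme ALAS2, load it into hemoglobin built of alpha and beta globin, and assemble a membrane around the anion exchanger band 3, the product of Slc4a1. The liver is the main blood-forming organ of the mouse fetus and gives way to spleen and bone marrow around birth, while reticulocytes, the young red cells in the blood that any liver sample can carry, still hold globin mRNA. A bulk sample cannot tell fewer cells of a type apart from less RNA per cell.

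Promoters are shown because the factors encoded by 2 of the genes, Gata1 and Klf1, bind short DNA words that can be looked for in them. RefSeq promoter windows on GRCm38.p6, from 250 bases before to 50 bases after the start, were matched for 4 of the 9 genes. They are Alas2 at chrX:150547167-150547466 (plus strand), Klf1 at chr8:84901732-84902031 (plus strand), Gata1 at chrX:7967861-7968160 (minus strand) and Hba-a1 at chr11:32283422-32283721 (plus strand). Capitals mark GATA letters (AGATAA or TGATAA) and KLF letters (CCACCC) on either strand, and adjoining capitals in Alas2 are 3 overlapping KLF matches.
Alas2: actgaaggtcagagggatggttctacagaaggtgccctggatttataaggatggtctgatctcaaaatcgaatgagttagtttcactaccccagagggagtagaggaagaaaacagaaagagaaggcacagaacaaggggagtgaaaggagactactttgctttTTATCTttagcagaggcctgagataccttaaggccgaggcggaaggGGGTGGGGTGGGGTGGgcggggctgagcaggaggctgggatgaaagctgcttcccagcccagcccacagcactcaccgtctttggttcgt
Klf1: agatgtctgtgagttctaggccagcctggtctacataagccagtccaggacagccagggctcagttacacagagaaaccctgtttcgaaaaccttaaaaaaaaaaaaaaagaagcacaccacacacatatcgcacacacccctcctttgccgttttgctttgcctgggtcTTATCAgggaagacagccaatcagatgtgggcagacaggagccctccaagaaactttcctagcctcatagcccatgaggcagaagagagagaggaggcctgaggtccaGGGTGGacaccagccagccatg
Gata1: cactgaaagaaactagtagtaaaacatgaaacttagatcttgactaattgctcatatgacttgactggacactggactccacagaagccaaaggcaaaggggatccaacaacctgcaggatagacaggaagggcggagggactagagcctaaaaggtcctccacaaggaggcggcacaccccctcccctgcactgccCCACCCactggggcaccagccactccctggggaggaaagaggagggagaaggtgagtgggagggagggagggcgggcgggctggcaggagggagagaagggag
Hba-a1: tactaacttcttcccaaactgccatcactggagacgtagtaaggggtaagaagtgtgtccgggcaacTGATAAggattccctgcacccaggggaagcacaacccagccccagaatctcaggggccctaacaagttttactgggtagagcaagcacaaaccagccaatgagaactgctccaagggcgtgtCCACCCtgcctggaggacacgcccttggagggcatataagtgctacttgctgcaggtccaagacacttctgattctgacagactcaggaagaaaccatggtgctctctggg
Counted from the start, GATA letters stand at -86 to -81 in Alas2, at -80 to -75 in Klf1 and at -183 to -178 in Hba-a1, and the Gata1 window holds none. KLF letters stand between -40 and -25 in Alas2, at 29 to 34 in Klf1, at -53 to -48 in Gata1 and at -61 to -56 in Hba-a1. Of the 12602 promoters of tested genes, 10.7% hold GATA letters, 36.3% hold KLF letters and 3.22% hold both, as Alas2, Klf1 and Hba-a1 do. An E-box (CANNTG) stands in the Klf1, Gata1 and Hba-a1 windows and in 64.2% of these promoters, and TATAAA on either strand stands in the Alas2 window and in 7.67% of them. These matches describe letters and not bound sites.

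Counted reads came to 4.85 M (mega) in KO1, 8.94 to 10.5 M in the other KO libraries and 10.13 to 10.79 M in WT libraries. Stab1, the check of the labels, had 5 to 16 reads per KO library, against 474 to 594 per WT library. Hepatocyte transcripts were abundant in every library, with summed levels of 10 markers from 97400 to 160000 CPM in KO and from 171000 to 182000 CPM in WT libraries. Alb, the largest part of these sums, had 46500 to 104000 CPM in KO and 118000 to 130000 CPM in WT libraries. Of the 10 markers, 4 had positive log2 fold changes of KO over WT (49.1% of all tested genes did). None of the 10 passed the edgeR test given below (0.227% of all genes did). The unit CPM is read counts scaled to library size, here with sizes adjusted by trimmed means. KO1 stands apart: it held 3 reads of Xist, which female cells express, against 4445 to 8222 in the other 7 libraries, and 320 reads of the Y-linked Ddx3y, against 0 to 4. KO1 also had the lowest total and the least complete read coverage, with a median of 91.06% of gene length covered over 2400 well-read genes. The median was 92.75%, 95.14%, 93.25% and 93.45% in KO2 to KO5, against 95.89%, 95.88% and 93.93% in WT1 to WT3. KO2, KO4 and KO5 were thus also below every WT library. Coverage also depends on the number of reads, so in KO1 it is not a measure apart from the low total. WT3 differed from the other WT libraries by more than they did from each other, with a median chi-square of 9.18 to 10 times its expectation, against 2.84. Tests of the erythroid genes are therefore given with and without KO1, and without WT3 where that changes a call.

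In KO livers the mean levels of all 8 tested erythroid genes were above those in WT livers, with log2 fold changes between 0.18 for Car2 and 1.28 for Hbb-b1. None of the 8 passed the test across all genes (edgeR quasi-likelihood test, Benjamini-Hochberg adjusted p below 0.05), where 0.227% of all tested genes did. Their median log2 fold change was 0.91, while over all tested genes it was -0.01 and 49.1% of genes had a positive value. The 8 genes are not separate observations, and they were chosen with earlier results of these data known. Over the 8 libraries each correlated with the mean of the other tested erythroid genes at Pearson r from 0.53 to 0.96, but Alas2 at -0.45. Unadjusted p was below 0.05 for 3 of the 8 (Car1, Hba-a1 and Hbb-b1), and for 1682 of the 12338 genes. Without KO1, again 0 of 8 passed, against 0.928% of all genes, all 8 log2 fold changes were positive with a median of 0.93, and 6 had an unadjusted p below 0.05, as did 3130 of 12283 genes. DESeq2 on all libraries called 0 of the 8, against 1.11% of genes, and DESeq2 without KO1 called 3, against 8.82% of genes, a setting chosen after the data were seen. The 3 were Car1, Hba-a1 and Hbb-b1, with DESeq2 adjusted p of 0.0277, 0.0336 and 0.00446. Leaving out KO5, the library with the highest mean profile, gave the lowest median of any single omission, 0.64. Single omissions do not show what KO4 and KO5 contribute together. In an edgeR fit with a block for the replicate number, where neither enters the difference, the median was 0.21. Slc4a1, Ahsp and Car2 were negative in that fit. Every KO library lay above every WT library for 1 of the 8, Hba-a1, and for 3.04% of all tested genes. With KO1 set aside it was again Hba-a1 alone, against 9.42% of genes.

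**Figure D1:**
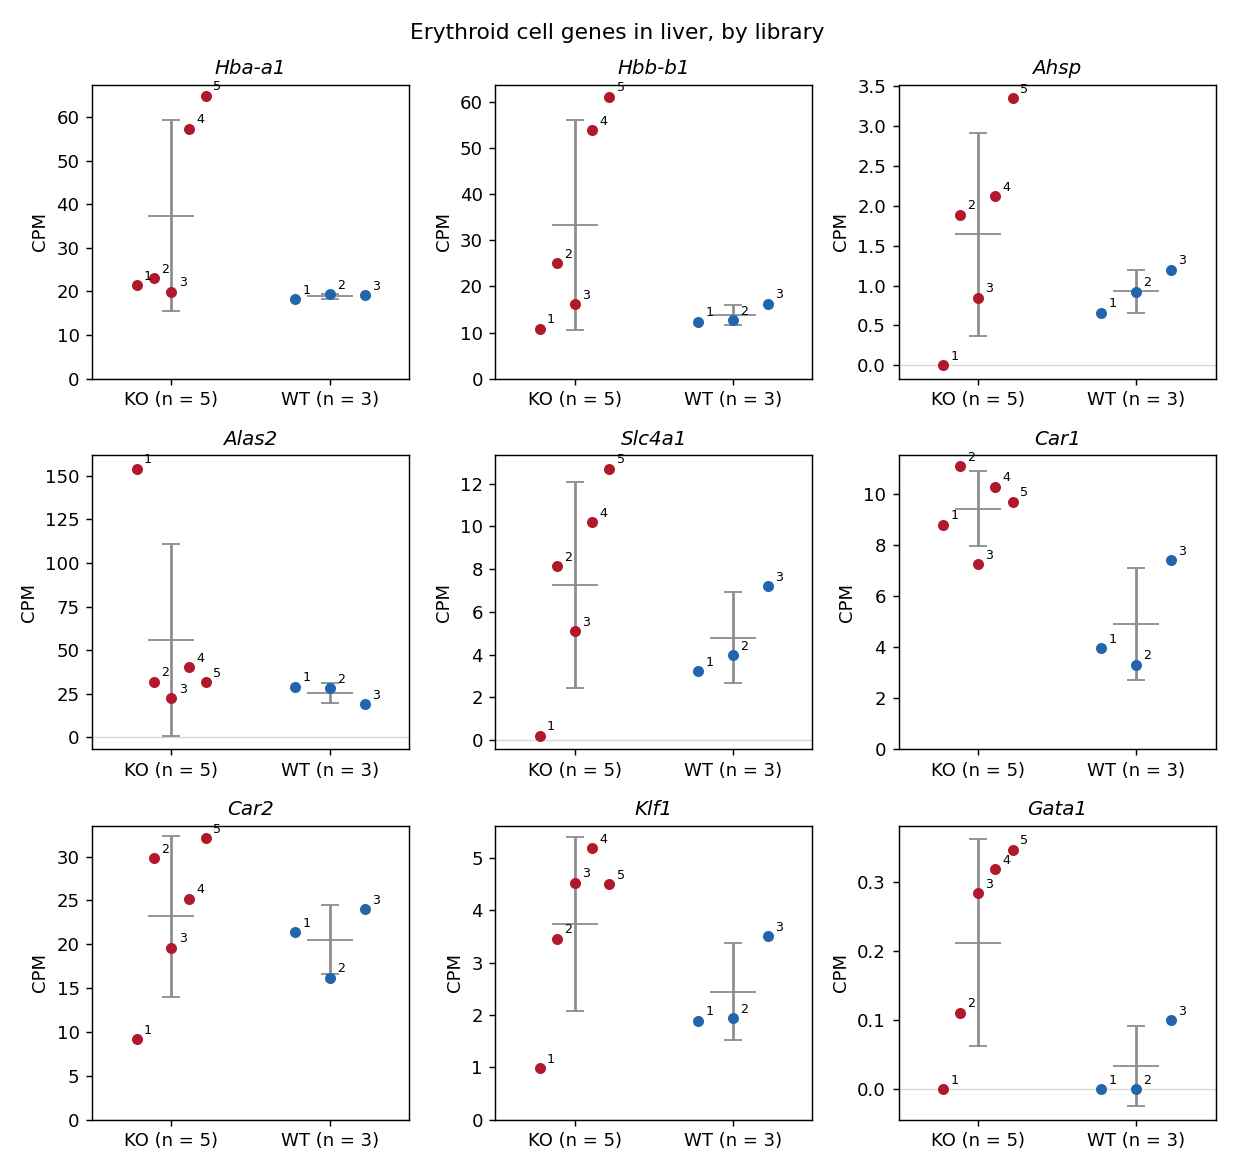
Levels of the 9 erythroid genes in CPM (linear axes starting at or just below 0), with a point for each KO and WT library, numbered by replicate, and a bar for the mean with error bars of 1 SD (n = 5 KO, n = 3 WT). KO4 and KO5 hold the 2 highest points for Hba-a1, Hbb-b1, Ahsp and Slc4a1, and KO1 holds the highest for Alas2 and the lowest of all libraries for Hbb-b1, Ahsp, Slc4a1, Car2 and Klf1.

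The alpha globin gene Hba-a1 (gene ID 15122), which encodes the alpha chain of adult hemoglobin, had 21.5, 23.1, 19.9, 57.3 and 64.9 CPM in KO1 to KO5, against 18.2, 19.4 and 19.1 CPM in WT1 to WT3. KO4 and KO5 stood far above all others, while KO1, KO2 and KO3 exceeded the highest WT library only slightly. The mean was 37.3 ± 21.9 CPM in KO livers (SD, n = 5) and 18.9 ± 0.633 CPM in WT livers (SD, n = 3). The log2 fold change was 0.98 (SE 0.41, edgeR adjusted p = 0.351), 1.12 without KO1 (SE 0.39, edgeR adjusted p = 0.119) and 0.69 without KO5. The spread thus lay within the KO group, with a coefficient of variation of 58.6% in KO and 3.34% in WT libraries.

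The beta globin gene Hbb-b1 (gene ID 15129) encodes a beta chain of adult hemoglobin. It had 10.8, 25.1, 16.1, 53.9 and 61.2 CPM in KO1 to KO5, against 12.4, 12.7 and 16.3 CPM in WT1 to WT3. KO4 and KO5 were again highest and KO2 was above every WT library, but KO1 was below them all and KO3 below WT3. The mean was 33.4 ± 22.8 CPM in KO livers (SD, n = 5) and 13.8 ± 2.19 CPM in WT livers (SD, n = 3), and the log2 fold change was 1.28 (SE 0.52, edgeR adjusted p = 0.343). Without KO1 it was 1.49 (SE 0.41, edgeR adjusted p = 0.0831), and without KO5 it was 0.95.

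Most globin reads did not fall on these 2 genes but on Hbb-bs, a beta globin gene of the haplotype that the reference strain C57BL/6 carries, whereas Hbb-b1 and Hbb-b2 belong to another haplotype. Hbb-bs had 86.1, 140, 99.0, 352 and 405 CPM in KO1 to KO5, against 70.6, 73.0 and 99.2 CPM in WT1 to WT3 (log2 fold change 1.42, SE 0.52, edgeR adjusted p = 0.333). KO4 and KO5 led here too, KO2 was above every WT library, KO3 was just below WT3, and KO1 lay between WT2 and WT3. Hba-a2, the near twin of Hba-a1, had 14.9, 14.7, 12.4, 39.1 and 34.7 CPM in KO1 to KO5, against 10.4, 13.3 and 13.6 CPM in WT1 to WT3 (log2 fold change 0.90, edgeR adjusted p = 0.359). Hbb-b2 held 1 to 6 reads per KO library and 0 to 2 per WT library. The embryonic globin genes Hba-x, Hbb-y and Hbb-bh1 had no read in any library, nor did Hbb-bh2. Hbb-bt had no match among the deposited genes and could not be analysed. Its coding sequence is 99.8% identical to that of Hbb-bs, and where its reads were counted is not known.

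How reads were split among globin copies is uncertain, because the deposited counts are of uniquely mapped reads. The coding sequences of Hba-a1 and Hba-a2 in the reference annotation, both of 429 bases, differ at 1 position (99.8% identity). Their bases 361 to 421 are shown, since they hold the only base, in capitals, by which a coding read can be given to 1 of the copies.
Hba-a1: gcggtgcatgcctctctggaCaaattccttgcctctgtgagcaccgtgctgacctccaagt
Hba-a2: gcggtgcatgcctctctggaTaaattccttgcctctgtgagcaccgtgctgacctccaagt
Reads covered 25.7% to 35.7% of Hba-a1 in any library, although 110 to 562 reads were counted there. They covered 16.5% to 26.2% of Hba-a2, 36.9% to 42.8% of Hbb-b1 and 44.4% to 46.6% of Hbb-bs. For comparison, Alas2, which has no such copy, was covered to 95.6% to 97.7% of its length.

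Ratios within a library show how far the globin genes kept in step. All globin genes together, scaled to the unadjusted library totals, had 141, 197, 149, 505 and 549 CPM in KO1 to KO5, against 111, 119 and 146 CPM in WT1 to WT3. The Hba-a1 to Hba-a2 read ratio was 1.45 to 1.87 in KO and 1.40 to 1.75 in WT libraries, and overlapped. Hbb-bs over Hbb-b1 was 8 in KO1 and 5.58 to 6.62 in the other KO libraries, against 5.71 to 6.07 in WT libraries. The read ratio of the beta pair (Hbb-bs and Hbb-b1) over the alpha pair (Hba-a1 and Hba-a2) was 2.66, 4.37, 3.57, 4.22 and 4.68 in KO1 to KO5, against 2.90, 2.62 and 3.53 in WT1 to WT3. The 4 KO libraries other than KO1 were thus above the WT libraries in this ratio, KO3 by little, and KO1 was near the lowest WT library.

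**Figure D2:**
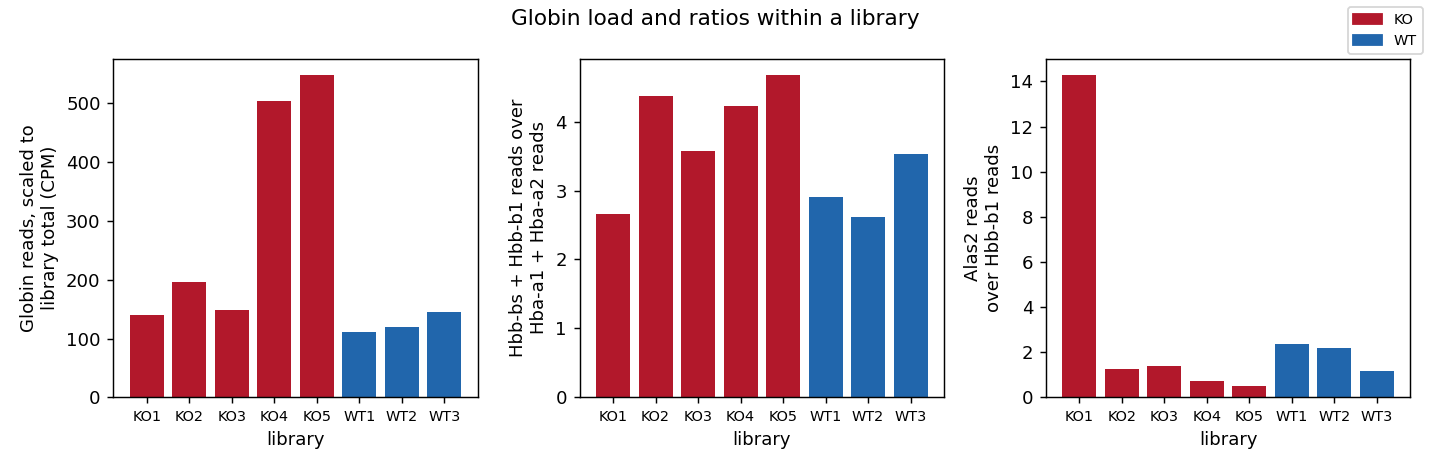
Bars, 1 per library, show all globin reads scaled to the library total in CPM (left), the read ratio of the beta pair Hbb-bs and Hbb-b1 over the alpha pair Hba-a1 and Hba-a2 (middle) and the read ratio of Alas2 over Hbb-b1 (right), with KO libraries in red and WT libraries in blue. KO4 and KO5 stand at 505 and 549 CPM of globin reads and all other libraries at 197 or less, and the Alas2 ratio of 14.3 in KO1 is far above the 0.515 to 2.35 of the other libraries.

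Ahsp (gene ID 170812) encodes the chaperone that holds free alpha globin until it pairs with beta globin. It had 0, 17, 9, 20 and 29 reads in KO1 to KO5, against 7, 10 and 12 reads in WT1 to WT3. At these depths that is 0, 1.89, 0.849, 2.12 and 3.35 CPM in KO libraries, against 0.661, 0.921 and 1.20 CPM in WT libraries. KO2, KO4 and KO5 were above every WT library, KO3 was inside the WT range and KO1 had none, where a count of 0 allows up to 0.587 CPM (3 reads). The log2 fold change was 0.88 (SE 0.67, edgeR adjusted p = 0.543), 1.11 without KO1 (SE 0.46, edgeR adjusted p = 0.167) and 0.48 without KO5.

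Alas2 (gene ID 11656) encodes 5-aminolevulinate synthase of erythroid cells, the enzyme of the first step of heme synthesis. It had 154, 31.8, 22.4, 40.2 and 31.5 CPM in KO1 to KO5, against 29.1, 28.1 and 19.1 CPM in WT1 to WT3. KO1, the library with the lowest levels of most erythroid genes, held the highest Alas2 level by a wide margin, and its 787 reads covered 97.4% of the gene. The mean was 56.0 ± 55.1 CPM in KO livers (SD, n = 5) and 25.4 ± 5.48 CPM in WT livers (SD, n = 3), and the log2 fold change was 1.12 (SE 0.59, edgeR adjusted p = 0.405). Without KO1 the KO mean was 31.5 ± 7.27 CPM (SD, n = 4) and the log2 fold change 0.30 (SE 0.22, edgeR adjusted p = 0.396). A fit that also held the median percent of gene length covered, which was lowest in KO1, gave -0.42. The same fit without KO1, a setting chosen after the data were seen, gave 0.26. For each Hbb-b1 read there were 14.3 Alas2 reads in KO1, 1.27, 1.39, 0.747 and 0.515 in KO2 to KO5, and 2.35, 2.21 and 1.17 in WT1 to WT3. KO4 and KO5, the libraries richest in globin reads, had the lowest ratios.

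Slc4a1 (gene ID 20533) encodes band 3, the anion exchanger and membrane anchor of red cells. It had 1, 73, 54, 96 and 110 reads in KO1 to KO5, against 34, 43 and 72 reads in WT1 to WT3. In CPM this was 0.196, 8.14, 5.09, 10.2 and 12.7 in KO libraries and 3.21, 3.96 and 7.21 in WT libraries. KO2, KO4 and KO5 were above every WT library, KO3 was below WT3, and the single read in KO1 lay under the floor of 3 reads. The log2 fold change was 0.63 (SE 0.65, edgeR adjusted p = 0.65), and 0.90 without KO1 (SE 0.35, edgeR adjusted p = 0.146). It was 0.35 without KO5, 0.42 without WT1 and 1.05 without WT3.

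Car1 and Car2 encode the cytosolic carbonic anhydrases of red cells, which interconvert carbon dioxide and bicarbonate. Car1 (gene ID 12346) had 8.80, 11.1, 7.26, 10.3 and 9.70 CPM in KO1 to KO5, against 3.97, 3.32 and 7.41 CPM in WT1 to WT3. All KO libraries, KO1 included, were well above WT1 and WT2, and 4 of the 5 were above WT3. The mean was 9.44 ± 1.49 CPM in KO livers (SD, n = 5) and 4.90 ± 2.20 CPM in WT livers (SD, n = 3), and the log2 fold change was 0.95 (SE 0.27, edgeR adjusted p = 0.301), with 0.96 without KO1 (edgeR adjusted p = 0.0907). Without WT3 it passed the test, at a log2 fold change of 1.37 (SE 0.23 and edgeR adjusted p = 0.0385), the only one of the 8 to do so, against 0.745% of all genes.

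Car2 (gene ID 12349), which bile duct cells also express, had 9.19, 29.8, 19.6, 25.2 and 32.1 CPM in KO1 to KO5, against 21.4, 16.2 and 24.0 CPM in WT1 to WT3. KO2, KO4 and KO5 lay above the WT range, KO3 inside it and KO1 below it. The log2 fold change was 0.18 (SE 0.33, edgeR adjusted p = 0.8), and 0.37 without KO1 (SE 0.20, edgeR adjusted p = 0.278). It was 0.08 without KO2, 0.04 without KO5, 0.03 without WT2 and 0.31 without WT3. Bile duct markers, all 6 listed, summed to 56.7, 132, 79.9, 103 and 99.5 CPM in KO1 to KO5, against 53.9, 65.1 and 61.2 CPM in WT1 to WT3. Spp1 alone had 49.7, 113, 69.7, 91.3 and 87.8 CPM in KO1 to KO5, against 42.1, 51.3 and 53.3 CPM in WT1 to WT3. The sums are thus mostly those of 1 gene. Of the 5 markers tested, 4 had positive log2 fold changes, Sox9 had -0.59, and none passed the edgeR test (0.227% of all genes did). The sums were lowest in KO1 among KO libraries, as Car2 was, and the part of bile duct cells in the Car2 values was not tested. The read ratio of Car2 over Car1 was 1.04, 2.67, 2.70, 2.45 and 3.31 in KO1 to KO5, against 5.40, 4.89 and 3.24 in WT1 to WT3. KO5 just exceeded WT3 in this ratio and the other KO libraries were below all WT libraries.

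Klf1 (gene ID 16596) encodes the factor named above as an activator of beta globin. It had 0.978, 3.46, 4.53, 5.19 and 4.50 CPM in KO1 to KO5, against 1.89, 1.94 and 3.51 CPM in WT1 to WT3, from 5 to 49 reads per library. KO3, KO4 and KO5 were above every WT library, KO2 was just below WT3, and KO1 was lowest. The log2 fold change was 0.65 (SE 0.42, edgeR adjusted p = 0.477), 0.85 without KO1 (SE 0.28, edgeR adjusted p = 0.11), 1 without WT3 and 0.50 without WT1. For each Klf1 read there were 11, 7.26, 3.56, 10.4 and 13.6 Hbb-b1 reads in KO1 to KO5, against 6.55, 6.57 and 4.66 in WT1 to WT3. KO3 had a Klf1 level like KO4 and KO5 without their globin level.

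Gata1 (gene ID 14460) was barely detected. Its reads numbered 0, 1, 3, 3 and 3 in KO1 to KO5, against 0, 0 and 1 in WT1 to WT3. Every library was at or under the floor of 3 reads, which is 0.587 CPM in KO1 and 0.276 to 0.346 CPM in the others, and the gene was not tested. Over the group totals, 10 KO reads against 1 WT read give a ratio of read rates of 7.36, with an exact 95% interval from 1.05 to 319 that covers counting error only and not the spread between libraries.

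**Figure D3:**
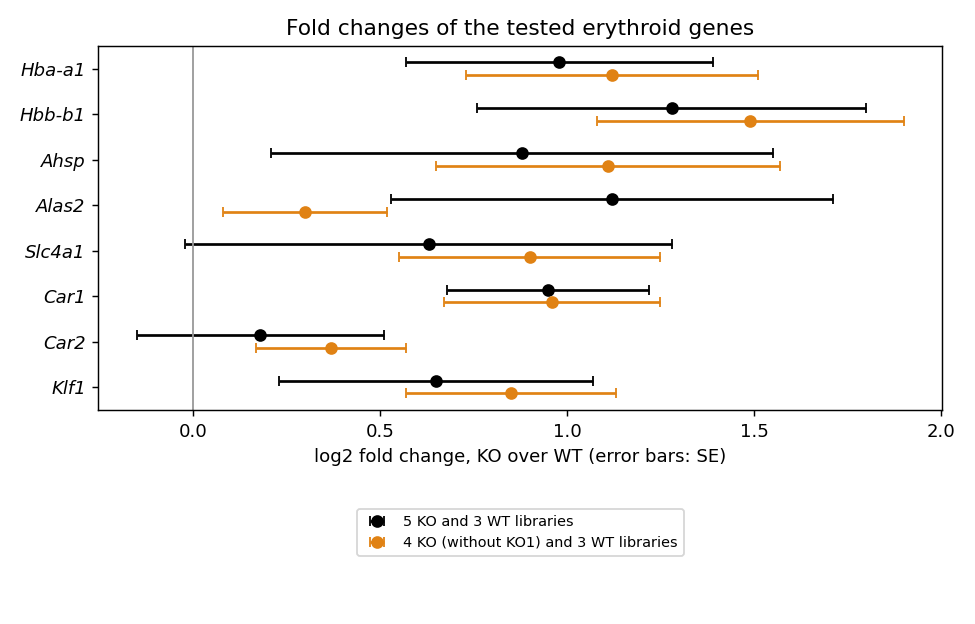
Log2 fold changes of KO over WT livers with their SE for the 8 tested erythroid genes, from edgeR with all libraries (black) and without KO1 (orange), on a linear axis with a line at 0. All points lie right of 0, and leaving out KO1 moves Alas2 to 0.30 while the SE narrows for every gene shown but Car1.

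Compared per length, in RPKM (read counts divided by gene length and library size), the order of mean levels was the same in both groups. Unique reads covered only part of Hba-a1 and Hbb-b1, as given above, so their RPKM and their distance from other genes are uncertain. Hba-a1 averaged 65.2 ± 37.2 RPKM in KO livers (SD, n = 5) and 33.1 ± 1.28 RPKM in WT livers (SD, n = 3), and Hbb-b1 followed with 52.8 ± 35.3 RPKM in KO and 21.9 ± 3.30 RPKM in WT livers. Alas2 averaged 28.9 ± 29.8 RPKM in KO and 12.8 ± 2.84 RPKM in WT livers, Car2 12.7 ± 4.73 RPKM in KO and 11.3 ± 2.08 RPKM in WT livers, and Car1 7.88 ± 1.12 RPKM in KO and 4.06 ± 1.79 RPKM in WT livers. The other 4 genes were lower, from Ahsp at 3.27 ± 2.51 RPKM in KO and 1.87 ± 0.535 RPKM in WT livers, over Klf1 at 2.42 RPKM in KO and 1.58 RPKM in WT and Slc4a1 at 1.56 RPKM in KO and 1.04 RPKM in WT, down to Gata1 at 0.110 RPKM in KO and 0.0173 RPKM in WT. In KO livers the ranges over libraries overlapped between every pair of neighbours in this order. For Hbb-b1 and Alas2, Car2 and Car1, and Slc4a1 and Gata1 the overlap came from KO1 alone. Within each library, KO or WT, Hba-a1 stood above Hbb-b1, Car1 above Ahsp and Klf1 above Slc4a1. Slc4a1 also stood above Gata1 each time, though in KO1 both were under the floor of 3 reads. Hbb-b1 stood above Alas2, and Car2 above Car1, in every library but KO1. Alas2 and Car2, and Ahsp and Klf1, changed order between libraries. In WT livers the ranges overlapped between Alas2 and Car2, between Ahsp and Klf1 and between Klf1 and Slc4a1, and not between the other neighbours.

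The mean profile of the 8 tested genes differed among the KO libraries. Standardised over the 8 libraries, their mean log2 CPM was -0.85, 0.40, -0.13, 0.86 and 0.98 SD in KO1 to KO5, against -0.56, -0.62 and -0.08 SD in WT1 to WT3. KO5 and KO4 were highest, KO1 lowest, and KO3 and WT3 lay next to each other in the middle. WT3 was above WT1 and WT2 for Slc4a1, Car1, Klf1, Hbb-b1, Ahsp and Car2, while Hba-a1 was flat over the WT libraries and Alas2 was lowest in WT3. As a description over 8 libraries, the 10 genes outside the group with log2 CPM most like this mean profile were Mroh2a, Sult1b1, Dcxr, Itm2b, Ccl9, Hyi, H2-T22, BC017643, Txn2 and Nagk. Their Pearson r, from 0.95 to 0.966, is the highest of 12128 candidate genes and so carries no test, and all points share the libraries' depth and composition. None of the 10 is on the lists of erythroid genes used here.

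**Figure D4:**
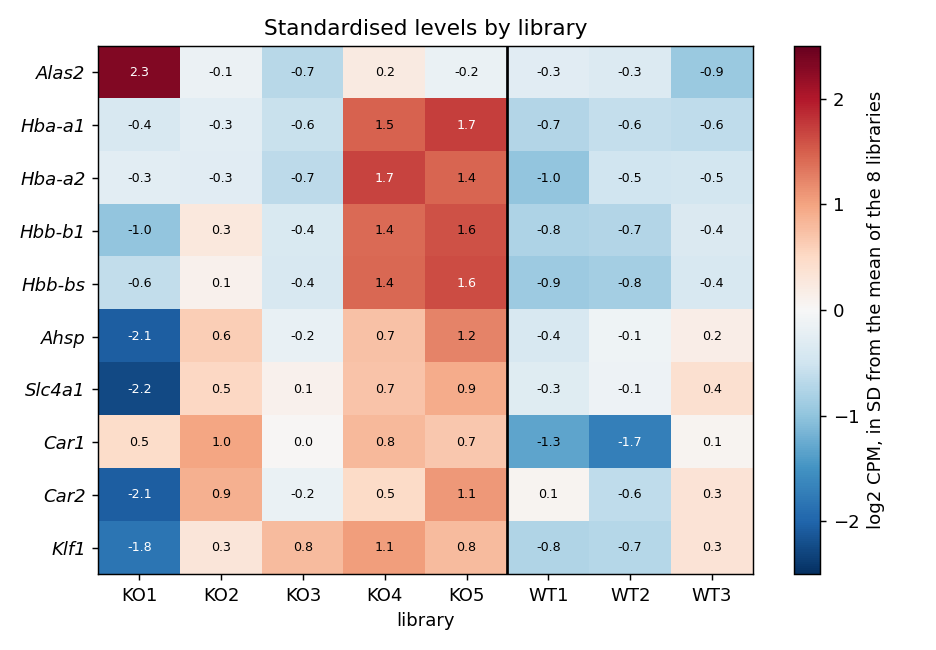
Colours and numbers give log2 CPM of each tested gene, with Hba-a2 and Hbb-bs added, as SD from its mean over the 8 libraries (KO libraries left of the line, WT libraries right). The 4 globin rows are highest in KO4 and KO5, the KO1 column is lowest for Ahsp, Slc4a1, Car2 and Klf1 (-1.8 to -2.2) and its Alas2 value is 2.3.

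The remaining genes of the erythroid programme, 71 entries in 4 lists of which 70 matched the table, are given by list. No gene of these lists passed the edgeR test with all libraries (0.227% of all genes did), and DESeq2 called 1 heme and maturation gene (1.11% of all genes). DESeq2 without KO1 called 1 globin, 1 membrane, 1 regulator and 2 heme and maturation genes, where it called 8.82% of all genes. Unadjusted p in edgeR was below 0.05 for 2 of 2 tested globin genes, 1 of 7 membrane genes, 2 of 12 regulators and 4 of 21 heme and maturation genes. Over all tested genes that share was 13.6%, against 14.3%, 16.7% and 19.0% in the membrane, regulator and heme lists. Of the 2 tested further globin genes both had positive log2 fold changes (median 1.16). Of 7 tested membrane genes 5 did (median 0.10), with the smallest p for Epb4.1, a skeleton protein of many cell types, at 76.8 ± 12.2 CPM in KO and 105 ± 4.64 CPM in WT livers (log2 fold change -0.46, edgeR adjusted p = 0.332). The blood group protein gene Ermap was at 0.64 and the water channel gene Aqp1 at 0.10 on the log2 scale, while Gypc was at -0.34. The membrane median was -0.03 without KO5 and -0.05 without WT1, so its sign rests on single libraries. Bile duct and endothelial cells also express Aqp1.

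Of 12 tested regulators 2 had positive log2 fold changes, with a median of -0.23, which is the opposite sign to that of Klf1. Nfe2, a globin regulator also found in platelet precursors, averaged 2.06 ± 0.699 CPM in KO and 4.34 ± 3.09 CPM in WT livers (log2 fold change -1.12, edgeR adjusted p = 0.341). Stat5a, a signal transducer of many receptors, averaged 13.4 ± 4.61 CPM in KO and 22.9 ± 9.12 CPM in WT livers (log2 fold change -0.79, edgeR adjusted p = 0.341). Kit and Cbfa2t3 had log2 fold changes of -0.31 and -0.41. Of 21 tested heme and maturation genes 15 had positive values (median 0.07). Cpox, an enzyme of later heme synthesis that hepatocytes also need, averaged 118 ± 17.4 CPM in KO and 178 ± 18.1 CPM in WT livers (log2 fold change -0.60, edgeR adjusted p = 0.264). The mitochondrial iron importer gene Slc25a37 and the exportin gene Xpo7 had log2 fold changes of -0.46 and -0.35.

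Some of the most erythroid-specific list genes had too few reads to be tested. The 11 untested membrane genes, among them Rhag, Rhd and Kel, together had 9, 72, 60, 70 and 87 reads in KO1 to KO5, against 29, 30 and 63 reads in WT1 to WT3. Their summed level was 1.76, 8.03, 5.66, 7.41 and 10 CPM in KO libraries, against 2.74, 2.76 and 6.31 CPM in WT libraries. Like Slc4a1, the sum was lowest in KO1, and WT3 lay above WT1 and WT2 and inside the KO range. The pooled read rate was higher in KO than in WT libraries for 10 of these 11 genes. The same held for 3 of 3 untested globin genes (23 KO reads and 4 WT reads in all), 3 of 3 heme and maturation genes (58 KO reads and 16 WT reads) and 3 of 6 regulators (119 KO reads and 85 WT reads). Pooled rates ignore the spread between libraries. The share with a higher rate in KO over all untested genes was not computed, so these counts stand without a background. The 6 regulators summed to 0.978 to 3.58 CPM in KO and 2.30 to 3.31 CPM in WT libraries, and overlapped. Rhag, an ammonium channel of the Rh complex named here after its values were seen, had 0, 9, 4, 3 and 10 reads in KO1 to KO5, against 0, 0 and 9 reads in WT1 to WT3.

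Markers of other cells that blood or liver can contribute were read beside the erythroid genes. Of 11 neutrophil markers with a row, 5 were tested, all with positive log2 fold changes, and 4 of the 5 without KO1, where Lcn2 had -0.38, against 1.02 with all libraries. S100a9 averaged 5.83 ± 1.51 CPM in KO and 2.54 ± 0.925 CPM in WT livers (edgeR adjusted p = 0.254). The 11 markers summed to 100, 17.8, 23.8, 30.7 and 22.7 CPM in KO1 to KO5, against 18.5, 17.0 and 21.6 CPM in WT1 to WT3, with 441 reads of Lcn2 in KO1, the library with the high Alas2 level. Lcn2 alone made 86.3 of the 100 CPM in KO1, so the high sum there is mostly that of 1 gene. It had 6.46 to 12.0 CPM in KO2 to KO5 and 10.1 to 12.7 CPM in WT libraries. The 10 platelet markers, of which 3 were tested and Gp6 was at 0 in all libraries, summed to 6.45, 7.47, 6.98, 9 and 11 CPM in KO1 to KO5, against 6.33, 7 and 8.71 CPM in WT1 to WT3. This sum, like the globin genes, was highest in KO5 and KO4. The 9 markers of mast cells and eosinophils, which also use GATA1, summed to 1.37 to 3.49 CPM in KO and 0.369 to 0.902 CPM in WT libraries, and Mcpt4 and Tpsb2 were at 0. Without Ccr3 the other 8 summed to 0.189 to 1.15 CPM in KO and 0 to 0.601 CPM in WT libraries, and overlapped. Ccr3, the eotaxin receptor gene and the only one of them tested, averaged 2.21 ± 0.828 CPM in KO and 0.319 ± 0.145 CPM in WT livers (log2 fold change 2.79, edgeR adjusted p = 0.0503, and 0.0104 without KO1, where 0.928% of all genes passed). It had 5, 21, 35, 20 and 20 reads in KO1 to KO5, against 5, 2 and 3 reads in WT1 to WT3. WT2 and WT3 were thus at or under the floor of 3 reads, and Ccr3 passed the filter on low counts through KO libraries alone.

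The 10 markers of Kupffer cells and other macrophages that clear red cells summed to 409 to 602 CPM in KO and 350 to 481 CPM in WT libraries, and 7 of the 10 had positive log2 fold changes (median 0.23). The 4 B cell markers had a median log2 fold change of -0.33, and their sums were 3.12 to 6.14 CPM in KO and 4.88 to 8.12 CPM in WT libraries. The 5 T cell markers, of which 1 was tested, summed to 1.78 to 5.72 CPM in KO and 2.80 to 3.49 CPM in WT libraries. All 15 cell cycle genes had negative log2 fold changes (median -0.98), with sums of 72.4, 71.4, 67.9, 98.1 and 79.2 CPM in KO1 to KO5, against 160, 137 and 68.0 CPM in WT1 to WT3. Over all tested genes 49.1% were positive. None of the 15 passed the edgeR test (0.227% of all genes did), and 1 was positive without KO1. WT3, which was nearest to the KO libraries in Slc4a1 and Car1, was also nearest to them in the cell cycle sum. The part of these cells in the erythroid values was not tested.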

How the data were processed

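Liver RNA of 5 KO and 3 WT libraries was analysed. Per the labels, RNA was isolated with a column kit and sequenced by Illumina methods. Aligner, genome build, annotation and strandedness were not given in the sources used here. A single gene table of 19464 rows was deposited by the authors. Its columns hold, per the file headers, a count of uniquely mapped reads by gene and library, the percent of each gene covered by reads, and RPKM. The deposited RPKM values equalled those recomputed from counts, totals and lengths (largest relative difference 8.29e-14). Reads of 113 gene IDs on 229 rows were summed, which left 19348 genes, 17474 of them with a read.

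Counts were filtered with filterByExpr, scaled by TMM and tested with edgeR 4.0.16 in R 4.3.3 (quasi-likelihood F test, KO over WT, no covariate). P-values were adjusted by Benjamini-Hochberg over 12338 genes and called below 0.05. The biological coefficient of variation was 24.8%. An SE is the log2 fold change divided by the square root of F. The steps were tested on simulated data. Alternatives were DESeq2 1.42.0, other scaling and filter settings, leaving out libraries in turn, a block for the replicate number and a coverage covariate. Standardised values used log2 CPM with a prior count of 2. Sequences came from RefSeq promoter tables and the reference transcripts. Figures used matplotlib 3.10.9 and tables pandas 2.3.3 in Python 3.11.15. Floors of 3 reads cover counting error only, and totals spanned a factor of 2.23. No 2 libraries of a group agreed within sampling noise.

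The genes and the lists were chosen with earlier results of these data known. Named are all 9 genes, from each further list those called or up to 4 with the smallest p, of which some are not reported here, the 10 genes most like the profile, and Stab1. Any others were chosen after their values were seen: Xist, Ddx3y, Lcn2, Rhag, Rhd, Kel and list genes given only as at or near 0 reads. Of the 157 list and marker entries, 155 matched the table.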

Additional observations from a re-analysis of the deposited data

Results flagged for a closer look

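The Alas2 level of 154 CPM in KO1 lay far from the other KO libraries. Its gap to the next KO library, KO4, was 0.865 of the whole KO range, above Dixon's critical value of 0.71 for 5 samples. All 9 erythroid genes were looked at in the KO group on both sides and this was the only value past the limit, and chance passes about 1 in 20 groups. The other KO libraries had 22.4 to 40.2 CPM and the WT libraries 19.1 to 29.1 CPM.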

How the results depend on the processing

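Of 136 recomputed log2 fold changes of single erythroid genes, 128 kept their direction and their side of the threshold, 4 passed it newly and 4 turned negative. The 4 that passed are Car1 without WT3 (1.37), and Car1 (0.97), Hba-a1 (1.12) and Hbb-b1 (1.5) with DESeq2 without KO1. The genes called among all tested, 28 with all libraries, ranged from 13 to 114 when 1 library was left out, and were 137 with DESeq2, 1083 with DESeq2 without KO1 and 13 with the coverage covariate. Erythroid genes called ranged from 0 to 1 when 1 library was left out and were 3 with DESeq2 without KO1. Alas2 turned to -0.42 with the coverage covariate, but was 0.26 with this covariate and without KO1. The median of the erythroid genes was 0.85 with the covariate and all libraries. It was 0.41 with the covariate and without KO1, against 0.93 without KO1 and no covariate. In the fit with the covariate and without KO1, Hbb-b1 was at 0.83, Hba-a1 0.72, Klf1 0.66, Car1 0.43, Ahsp 0.38, Slc4a1 0.23 and Car2 0.01. That setting was chosen after the data were seen.

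With the replicate block the genes called were 8 and the median log2 fold change of the erythroid genes was 0.21. Under this replicate block the membrane list median was -0.34, Car2 -0.18, Slc4a1 -0.36 and Ahsp -0.14. In that fit KO4 and KO5, which share no number with a WT library, do not enter the difference. Deviations of libraries with the same number correlated at 0.12, -0.15 and -0.15, and those with different numbers at -0.28 to 0.31. So few pairs cannot show whether libraries with the same number share more than the number. DESeq2 scaling within edgeR, no filter and unsummed rows changed no call of an erythroid gene. Over all promoters, GATA letters stand in 18.6% and KLF letters in 31.5%. The depth of KO1 limits Ahsp, Slc4a1 and Gata1, and Gata1 is at or under the floor of 3 reads in every library.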
